A study of Mus musculus with 168 samples.

Results

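Mbp, Mobp, Mog, Mag, Cnp, Mal, Cldn11 and Ugt8a are genes of the central myelin sheath, and their transcripts were found in tubes of neurons cut by laser from the mouse brainstem, midbrain and spinal cord. They were taken by name from the expression table, 8 of its 39410 genes. The series has 168 Smart-seq2 libraries, each made from about 150 cells of 1 of 6 neuron populations, taken from mice that model spinal muscular atrophy (SMA) and from littermate controls at postnatal day 2, 5 or 10. The populations are the ocular motor neurons (oculomotor and trochlear nuclei), the facial, vagus and hypoglossal motor neurons, the lumbar motor neurons of the spinal cord, and the red nucleus, whose neurons are not motor neurons. SMA mice were Smn-/-/SMN2+/+/SMN∆7+/+ and controls Smn+/+/SMN2+/+/SMN∆7+/+, so the controls also carried both human transgenes and are not wild type. Where 1 mouse gave more than 1 library of a population their mean was used, which left 160 samples from 34 mice, with 72 samples from 15 control mice and 88 from 19 SMA mice, in 36 groups of 3 to 7 mice. Values are RPKM, reads per kilobase of transcript scaled to the size of the library.

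Myelin in the brain and spinal cord is made by oligodendrocytes, which wrap axons in layers of their own membrane. A precursor cell stops dividing, becomes a committed oligodendrocyte and then turns on the genes of the sheath, and this happens at different ages in different tracts after birth. Myelin basic protein (Mbp) holds the inner faces of the membrane together. Mobp is another small protein of the compacted sheath. Mog sits on the outermost surface of the sheath and is a late marker of maturing oligodendrocytes. Mag lies on the innermost layer, next to the axon. Cnp is an enzyme of the uncompacted cytoplasmic channels. Mal is a membrane protein that helps sort myelin proteins, Cldn11 forms the tight junctions between layers, and Ugt8a makes galactosylceramide, the main glycolipid of myelin. The Mbp gene also gives golli transcripts, which neurons make too, and gene-level RPKM does not separate them from the transcripts of the sheath.

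The 8 genes lie on 7 chromosomes, and all are protein coding in GENCODE M21 (mouse build GRCm38). Mbp spans chromosome 18 from 82475146 to 82585637 on the plus strand, and Mobp spans chromosome 9 from 120149707 to 120181484 on the plus strand. Mog lies on chromosome 17 from 37010743 to 37023398 and Mag on chromosome 7 from 30899176 to 30914873, both on the minus strand. Cnp is on chromosome 11 from 100574904 to 100591729 (plus), and Mal on chromosome 2 from 127633226 to 127656695 (minus). Cldn11, at 31149920 to 31164324 (plus), and Ugt8a, at 125865271 to 125938619 (minus), share chromosome 3. Exons of Cnp overlap exons of Dnajc7, a co-chaperone gene on the opposite strand. Smart-seq2 with Tn5 does not mark the strand, so reads of that overlap cannot be assigned to either gene, and Cnp is the member whose level is least certain. Mobp exons overlap Gm38642, a transcript on the same strand.

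A tube of captured neurons can hold fragments of whatever lay against them, and the cell that made a transcript was not measured here. In such bulk samples, fewer cells of a type and less RNA per cell cannot be told apart, and this holds for every value below.

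Sequence just before the start was available from RefSeq (GRCm38.p6) for 7 of the 8 genes. For the 3 genes with a match to a searched motif, 1 window each is shown (Mag has another that overlaps it). Capitals mark matches to 2 short motifs searched on both strands: ACAAAG, which reads CTTTGT on the other strand and is a core letter string of Sox factors such as Sox10, and CTGGCAC, or GTGCCAG from the other side, which belongs to the myelin regulator Myrf. The windows end at or before the first annotated base of the gene: Mag at chr7:30914923-30915172 (minus strand), Mobp at chr9:120149492-120149706 (plus) and Cnp at chr11:100574689-100574903 (plus).
Mag: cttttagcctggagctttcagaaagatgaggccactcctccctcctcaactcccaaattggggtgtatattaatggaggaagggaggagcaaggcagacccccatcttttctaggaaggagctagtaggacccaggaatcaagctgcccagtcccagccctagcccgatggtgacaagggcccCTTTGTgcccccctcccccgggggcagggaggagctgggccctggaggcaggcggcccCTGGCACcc
Mobp: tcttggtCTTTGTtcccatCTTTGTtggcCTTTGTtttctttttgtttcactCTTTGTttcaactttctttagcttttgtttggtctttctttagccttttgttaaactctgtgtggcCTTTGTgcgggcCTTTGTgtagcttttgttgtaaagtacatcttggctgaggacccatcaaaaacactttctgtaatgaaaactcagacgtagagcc
Cnp: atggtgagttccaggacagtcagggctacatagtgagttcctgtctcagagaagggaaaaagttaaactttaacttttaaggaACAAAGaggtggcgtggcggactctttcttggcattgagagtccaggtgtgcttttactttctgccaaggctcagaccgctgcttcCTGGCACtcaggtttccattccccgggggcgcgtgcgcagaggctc
Mag and Cnp each held 1 match to the Sox string and 1 to the Myrf string, and Mobp held 6 matches to the Sox string and none to the other. Of all 32851 promoter windows of 250 bases in the table, 16.5% held the Sox string and 4.19% the Myrf string, against 4 and 3 of the 9 windows of these 7 genes. The matched windows belong to 3 and 2 genes, and 2 of them, both of Mag, overlap. An E-box string, CATCTG, whose other strand reads CAGATG, was in none of the 9 and in 14.4% of all windows. These are matches of letters in a short window and do not show binding.

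The files and labels fitted each other where this could be checked. Smn1, the deleted gene, was at 0 in 70 of 88 SMA samples and at most 4.24 RPKM in the others, against 4.32 to 63.3 RPKM in controls. Depth, worked out from the size of single-read steps, had a median of 5.89 M reads (M as in Mb, the megabase) and ran from 0.342 to 16.3 M. At the median depth 1 read is worth 0.0200 RPKM of Mbp and 0.0996 RPKM of Mog. Control libraries were shallower at day 10, with population medians of 3.80 to 5.47 M, than at day 5, with 6.65 to 9.13 M. The shallowest was that of control mouse 252 for the red nucleus at day 10, in which 1 read was worth 1.72 RPKM of Mog; the next lowest depth was 1.44 M. Neuron markers dominated every population: the summed RPKM of 10 neuron genes in controls had population medians of 7889 to 19013 at days 2 and 10. The summed RPKM of 4 motor neuron genes was 725 or higher as a median in the 5 motor populations at those ages, and 32.2 and 83.4 in the red nucleus.

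The first question was when the myelin genes appear beside each population in controls. From day 2 to day 10 the 8 genes rose around lumbar, ocular and red nucleus neurons, 6 of 8 rose around hypoglossal neurons and 5 of 8 around facial neurons, and none of 7 tested passed the threshold around vagus motor neurons. The test was limma on log2(RPKM + 1) within a population, with Benjamini-Hochberg adjustment over all genes tested and a threshold of 0.05. Among all genes tested, the percentage that rose was 4.76 in lumbar, 4.38 in ocular, 5.72 in red nucleus, 2.43 in hypoglossal, 2.6 in facial and 0.581 in vagus samples. In total 35 of 47 gene and population pairs passed, each of them upward. The remaining pair, Mog in the vagus, was not tested because it reached 1 RPKM in only 2 of 25 vagus samples. A gene can enter the test through the age at which it is high, so the counts describe the genes tested. The median change over all genes was between -0.10 and 0.06 on the log2 scale in every population.

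**Figure D1:**
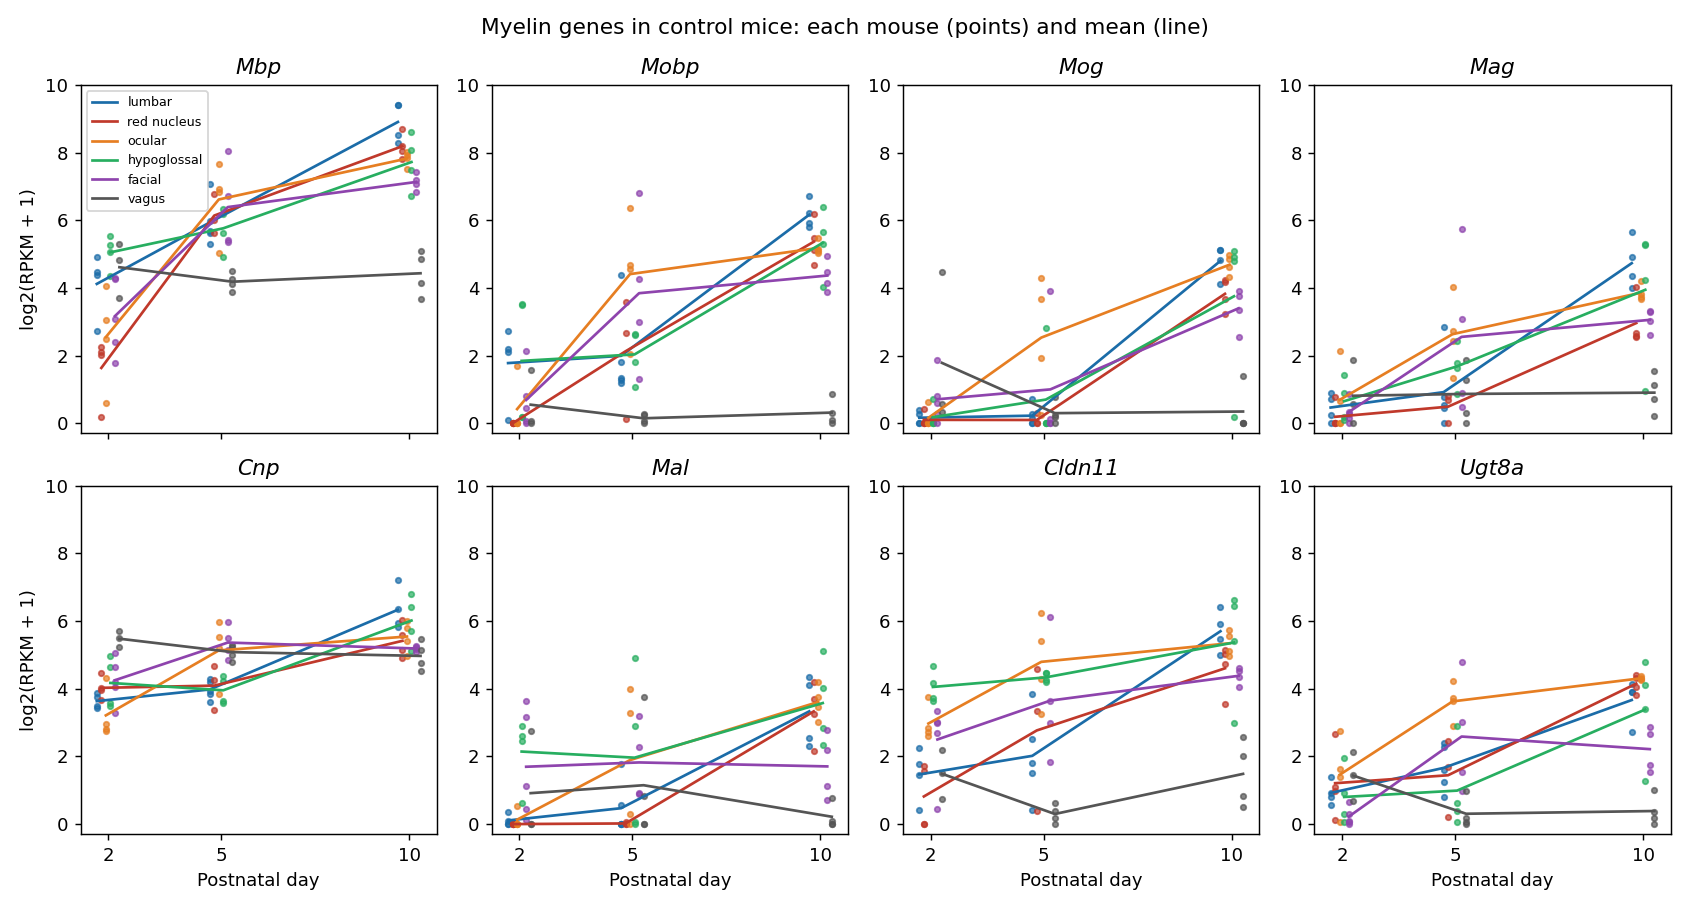
Each panel is 1 gene; the horizontal axis is postnatal day and the vertical axis log2(RPKM + 1). Points are single control mice and lines join the means of the 6 populations: lumbar Mbp climbs from a mean of 18.9 RPKM at day 2 to 509 RPKM at day 10, while the vagus mean of Mbp is 25.9 RPKM at day 2 and 22.3 RPKM at day 10.

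Mbp was the most abundant of the 8 at day 10 in 5 of the 6 populations. In lumbar samples the control mice had 5.60, 19.9, 21.04 and 29.0 RPKM at day 2, 38.6, 48.4, 50.5, 61.9 and 134 RPKM at day 5, and 313, 363, 674 and 684 RPKM at day 10. The groups of the 3 ages did not overlap. The change from day 2 to day 10 was 4.79 ± 0.46 (log2 fold change ± SE; adjusted p = 1.88e-08, limma). Red nucleus samples started lowest, with 0.139, 3.02, 3.31 and 3.74 RPKM at day 2, 48.8, 63.1 and 108.8 RPKM at day 5, and 223.4, 266, 293 and 413 RPKM at day 10. Again no mouse of one age reached the range of another. On the scale of the tests, the red nucleus change of 6.55 ± 0.37 was larger than that of any other member in any population (adjusted p = 1.44e-10, limma). That scale understates the change of genes that were low at day 2, such as Mobp, so the ranking holds for that scale only.

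Ocular samples had 0.513, 4.57, 7.38 and 15.6 RPKM of Mbp at day 2 and 181.6, 229.4, 243.1 and 255.7 RPKM at day 10, a change of 5.28 ± 0.80 (adjusted p = 6.66e-05, limma). Facial samples had 2.45, 4.24, 7.51, 18.3 and 18.7 RPKM at day 2 and 112.1, 134, 146 and 171.04 RPKM at day 10, a change of 3.97 ± 0.52 (adjusted p = 1.32e-05, limma). Hypoglossal samples were already at 19.5, 32.4, 37.4 and 45.1 RPKM at day 2 and reached 104.8, 177.5, 267 and 391.6 RPKM at day 10, a change of 2.67 ± 0.41 (adjusted p = 0.000175, limma). In all 3 populations each day-10 mouse lay above each day-2 mouse. Vagus samples had 12.2, 27.2 and 38.5 RPKM at day 2, 13.7, 16.2, 18.3 and 21.5 RPKM at day 5, and 11.6, 16.6, 28.0 and 32.8 RPKM at day 10. The vagus ranges overlapped fully, and the day-10 minus day-2 difference was -0.18 ± 0.43 (adjusted p = 0.911, limma).

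Mobp, the other protein of compact myelin, had control means of 0 to 5.25 RPKM at day 2, the highest in hypoglossal samples. It was listed at 0 in all 4 red nucleus mice at day 2 and was 24.6, 33.7, 43.8 and 71.3 RPKM there at day 10. In lumbar samples it was 0.0652, 3.30, 3.57 and 5.65 RPKM at day 2 and 55.2, 59.2, 73.7 and 103 RPKM at day 10. Days 2 and 10 did not overlap in either. The changes were 5.36 ± 0.69 in red nucleus (adjusted p = 1.92e-05, limma) and 4.38 ± 0.76 in lumbar samples (adjusted p = 0.000145, limma). It also rose in ocular (4.76), hypoglossal (3.49) and facial (3.68) samples. In the vagus the highest control value at day 10 was 0.820 RPKM.

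Mog and Mag, on the outer and inner surface of the sheath, were at 3.36 RPKM or less in every control mouse at day 2 but 1, a vagus mouse. Mog in lumbar samples was 0, 0, 0.211 and 0.302 RPKM at day 2, 0, 0, 0.105, 0.212 and 0.632 RPKM at day 5, and 16.4, 27.7, 33.8 and 33.9 RPKM at day 10. Days 2 and 5 could not be told apart and day 10 stood far above both, a change from day 2 of 4.64 ± 0.39 (adjusted p = 1.23e-09, limma). Ocular mice reached 19.1, 23.4, 27.9 and 30.1 RPKM at day 10, red nucleus mice 8.37, 11.6, 17.2 and 17.8 RPKM, and facial mice 4.89, 9.29, 12.5 and 14.0 RPKM. In hypoglossal samples at day 10, 3 mice had 26.9, 29.5 and 33.3 RPKM and the remaining one, mouse 247, had 0.135 RPKM. The vagus mouse with the high day-2 value was control mouse 240, at 21.1 RPKM of Mog against 0.253 and 0.477 RPKM in the other two. Mag in lumbar samples went from 0, 0.188, 0.656 and 0.850 RPKM at day 2 to 14.9, 19.5, 29.0 and 49.8 RPKM at day 10, with no overlap and a change of 4.27 ± 0.57 (adjusted p = 3.31e-06, limma). It rose in the same 5 populations, by 2.73 in facial to 3.29 in hypoglossal samples elsewhere.

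Cnp did not start from 0. In lumbar samples it was 9.68, 10.3, 12.4 and 13.6 RPKM at day 2 and 55.8, 60.2, 81.0 and 148 RPKM at day 10, a change of 2.70 ± 0.24 (adjusted p = 3.79e-09, limma). It rose as well in ocular (2.33), hypoglossal (1.84) and red nucleus samples (1.39), and the facial difference of 0.94 ± 0.29 did not pass (adjusted p = 0.0523, limma). The vagus was highest at day 2, at 36.6, 44.4 and 50.96 RPKM, and was 21.8, 26.0, 34.5 and 43.2 RPKM at day 10. Dnajc7, the overlapping gene, had population means of 33.5 to 52.03 RPKM in controls at day 10, with 51.1 RPKM in the vagus. At day 2 its control means were 30.2 RPKM in the vagus and 37.3 to 61.5 RPKM in the other populations. Its part in the Cnp values was not tested.

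Mal and Cldn11, the sorting protein and the junction protein, rose in 3 of the 6 populations. Mal was listed at 0 in all 4 red nucleus mice at day 2 and was 3.51, 8.55, 12.04 and 17.2 RPKM at day 10, a change of 3.33 ± 0.40 (adjusted p = 7.8e-06, limma). Its changes were 3.48 in ocular and 3.22 in lumbar samples. Facial Mal had overlapping ages: 0.0936, 0.354, 1.18, 7.91 and 11.4 RPKM at day 2 and 0.651, 1.20, 3.54 and 5.84 RPKM at day 10, a difference of 0.01 ± 0.81. Hypoglossal Mal differed by 1.43 ± 0.97 (adjusted p = 0.482, limma). Cldn11 in lumbar samples went from 0.329, 1.72, 2.4 and 3.76 RPKM to 30.9, 43.4, 59.7 and 83.8 RPKM, a change of 4.23 ± 0.64 (adjusted p = 2.25e-05, limma). Its changes were 3.79 in red nucleus and 2.37 in ocular samples, and it did not pass in facial (1.88, adjusted p = 0.0907, limma) or hypoglossal samples (1.31, adjusted p = 0.202, limma), where day-2 means were already 5.83 and 16.3 RPKM.

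Ugt8a, the glycolipid enzyme, rose in 5 populations by amounts close to each other, from 2.00 in facial to 2.94 in red nucleus samples. Ocular mice were tightly grouped at day 10, at 18.0, 18.7, 18.9 and 19.7 RPKM, after 0.0490, 1.61, 2.11 and 5.68 RPKM at day 2. In the vagus it went the other way without passing, from 0.620, 1.75 and 3.42 RPKM at day 2 to 0, 0.132, 0.270 and 1.03 RPKM at day 10. That difference, -1.05 ± 0.46 (adjusted p = 0.333, limma), was the only vagus one with an unadjusted p under 0.05.

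**Figure D2:**
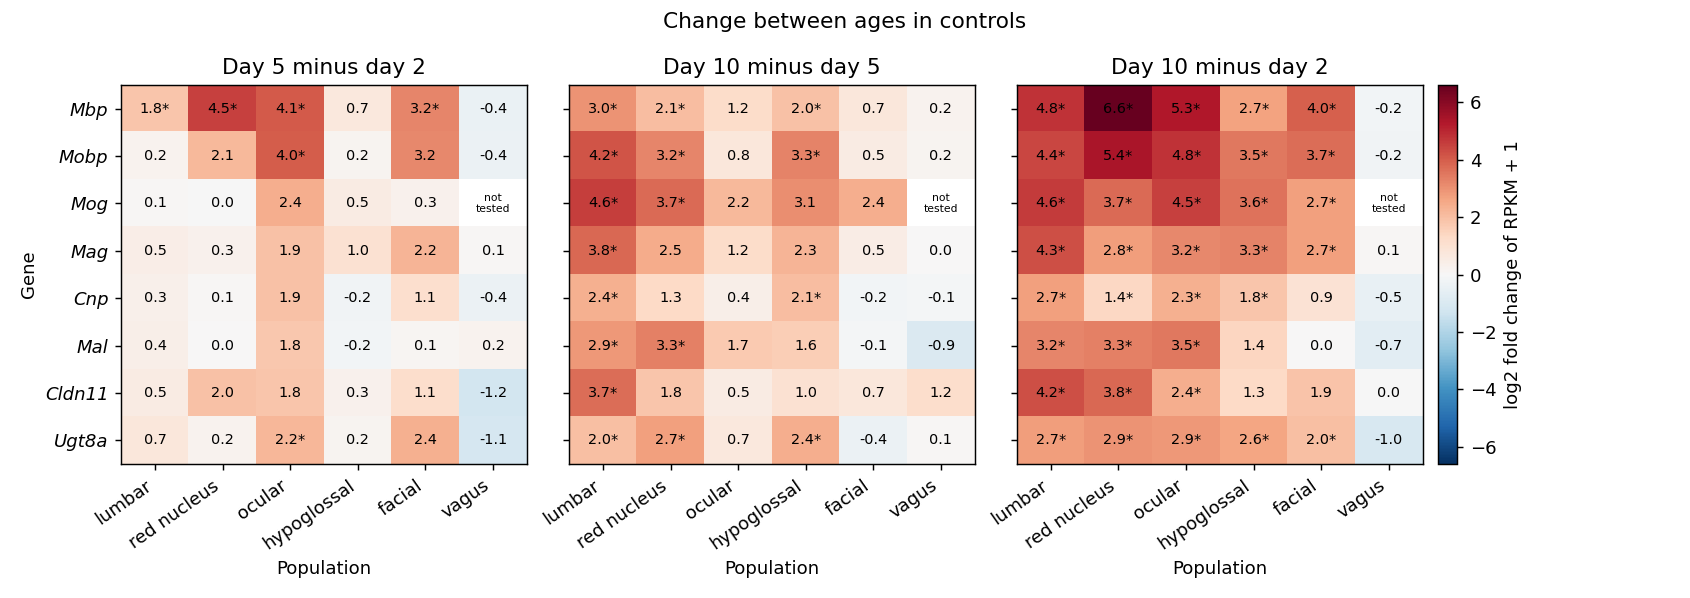
Rows are the 8 genes and columns the 6 populations. Colour is the log2 fold change of RPKM + 1 in controls between 2 ages, red for higher at the later age. A star marks an adjusted p under 0.05. The day-2 to day-10 panel has stars in all 8 rows for lumbar, ocular and red nucleus and no star for vagus.

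Most calls kept their side of the threshold when 1 control mouse was left out, and 4 did not. Hypoglossal Mog (adjusted p = 0.0365) kept its call without mouse 247 and lost it without each of mice 26, 28, 240, 244, 252, 253 or 254, with adjusted p from 0.0559 to 0.132. Hypoglossal Ugt8a (0.0181) was lost without mouse 26 (0.0716), 28 (0.0542), 252 (0.0627) or 253 (0.0803). Red nucleus Cnp (0.0398) was lost without mouse 14 (0.0926), 28 (0.0676), 244 (0.075), 247 (0.0741), 252 (0.0596) or 253 (0.117). Facial Ugt8a (0.0185) was lost without mouse 252 (0.0775) or 254 (0.0637). All these adjusted p are from limma, and no refit changed a sign.

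The interval from day 2 to day 5 held fewer calls than that from day 5 to day 10, and the timing of one gene against another was not tested. From day 2 to day 5 Mbp rose in red nucleus (4.50 ± 0.40), ocular (4.07 ± 0.80), facial (3.22 ± 0.52) and lumbar samples (1.82 ± 0.44). Mobp (3.99 ± 0.78) and Ugt8a (2.17 ± 0.43) rose with it in ocular samples, and no other member passed anywhere in that interval. The members called were thus 3 in ocular, 1 each in facial, lumbar and red nucleus, and 0 in hypoglossal and vagus samples. At an unadjusted p under 0.05 limma gave 0 members in hypoglossal and 2 in vagus samples, both lower at day 5. Among all genes tested the percentage that rose was 0.12 in ocular, 0.0174 in facial, 0.647 in lumbar, 0.118 in red nucleus and 0 in both others. From day 5 to day 10 all 8 rose in lumbar, 5 in red nucleus (Mbp, Mobp, Mog, Mal and Ugt8a) and 4 in hypoglossal samples (Mbp, Mobp, Cnp and Ugt8a), where 4.38%, 1.61% and 1.4% of all genes rose. None passed in ocular, facial or vagus samples, where 0.724%, 0.469% and 0.245% of all genes rose and 2, 1 and 1 members had an unadjusted p under 0.05 in limma.

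Expressed against the day-10 mean of the same population, day-5 Mbp stood at 80.1% in facial, 51.3% in ocular, 24.6% in red nucleus, 24.3% in hypoglossal and 13.1% in lumbar samples. Mobp stood at 169.2%, 92.5%, 12.7%, 7.58% and 7.25% in the same order. Mog stood lower than both in each: 34.3% in facial, 33.2% in ocular, 0.551% in red nucleus, 6.67% in hypoglossal and 0.680% in lumbar samples. These percentages are ratios of means of 3 to 5 mice and carry no test.

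Several of these day-5 means rest on 1 mouse. Lumbar Mobp at day 5 was 1.26, 1.44, 1.52 and 2.48 RPKM in 4 mice and 19.7 RPKM in mouse 71, and hypoglossal Mog was 5.99 RPKM in mouse 29 and 0 in the other 3. Facial Mbp at day 5 was 40.3, 41.5, 104.9 and 265 RPKM, and Mobp 1.498, 6.90, 18.1 and 111.9 RPKM. The highest value of both was mouse 29, which also had 13.9 RPKM of Mog against 0 to 0.0814 RPKM in the other 3 mice and 52.9 RPKM of Mag. Ocular Mbp at day 5 was 31.9, 113.1, 120 and 201.5 RPKM. All ocular control libraries of day 2 were cut from both nuclei together. At day 5 this held for mouse 71 only, and mice 29, 30 and 75 gave libraries of single nuclei. Dissection thus differed between these ages in ocular controls. The top ocular mouse, 75, gave a library of the trochlear nucleus alone with 333 RPKM of Mbp and 158.5 RPKM of Mobp, and an oculomotor library with 70.3 and 4.06 RPKM. In mouse 30 the trochlear library was also higher in Mbp, at 58.4 against 5.46 RPKM, but lower in Ugt8a (1.46 against 11.5 RPKM) and Cnp (9.41 against 17.3 RPKM). In mouse 254 at day 10 the trochlear library was lower for all 8 genes, with Mbp at 158.8 against 204.4 RPKM. Each of the 3 ocular calls between day 2 and day 5 was lost without mouse 29, 71, 75 or 244, and in the last of these refits 1 other member passed. The Mobp call was also lost without mouse 14 (adjusted p = 0.0514, limma) and the Ugt8a call without mouse 26 (adjusted p = 0.0513, limma), and 5 members passed without mouse 30. The facial call was lost without mouse 29 (Mbp adjusted p = 0.0845, limma), and 2 members passed without mouse 71 or 75. Lumbar Mbp (adjusted p = 0.0291) was lost without mouse 20 (0.174), 71 (0.0782), 75 (0.0686), 240 (0.0579) or 244 (0.0685), all limma. Red nucleus Mbp kept its call whichever mouse was left out. In the later interval 2 of the 4 hypoglossal members were left without mouse 29 and 7 passed without mouse 247, and 3 of the 5 red nucleus members were left without mouse 34.

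**Figure D3:**
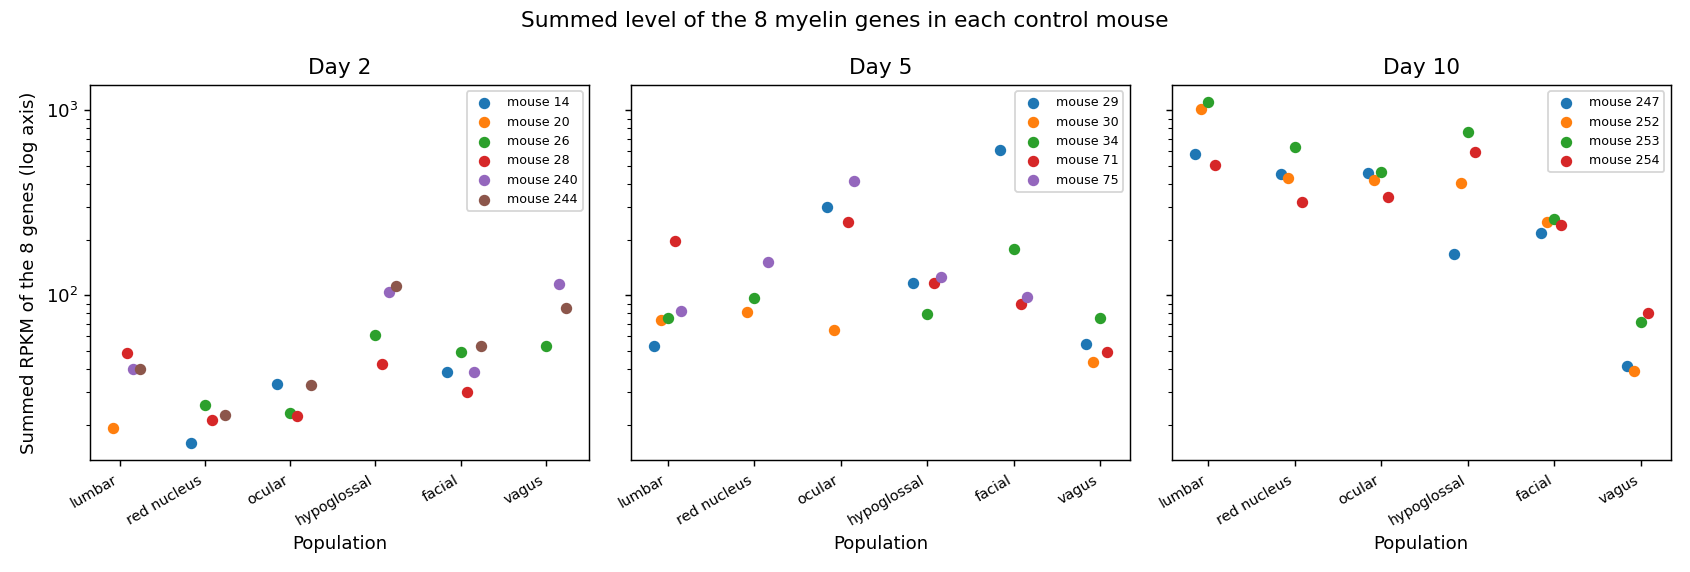
Each point is 1 control mouse; the vertical axis is the summed RPKM of the 8 genes on a log scale and the panels are postnatal days 2, 5 and 10. At day 5 facial mice spread from 89.5 to 609 RPKM, and at day 10 vagus mice, at 39.1 to 80.7 RPKM, lie below every mouse of the other 5 populations.

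The populations were then compared within an age, in one limma fit of all 36 groups with the mouse as a random block. At day 2 the level of 4 of 8 genes differed among the 6 control populations (Mbp, Cnp, Mal and Cldn11), at day 5 of 7 of 8 (not Mal) and at day 10 of 8 of 8, by an F test with adjusted p under 0.05. Populations differ in many genes, and the same test called 29.2%, 24% and 24.8% of all genes at days 2, 5 and 10. Without mouse 29 the day-5 count was 4. With the mouse as a fixed block in controls of one age the counts were 3, 5 and 8 at days 2, 5 and 10. The change from day 2 to day 10 itself depended on the population for 7 of 8 genes, against 5.54% of all genes. Mag was the exception (adjusted p = 0.0524).

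The order of populations by mean level was not the same at each age. At day 2 mean log2 Mbp ran from hypoglossal through vagus, lumbar, facial and ocular to red nucleus, and hypoglossal exceeded red nucleus by 3.43 ± 0.56 (adjusted p = 5.19e-07, limma). At day 10 it ran from lumbar through red nucleus, ocular, hypoglossal and facial to vagus. The red nucleus thus had the lowest mean at day 2 and the next to highest at day 10. No step between neighbours in the day-2 order passed (adjusted p of 0.356 to 0.852, limma). Neighbours in the day-10 order from lumbar down to facial did not differ beyond their spread (adjusted p of 0.572 to 1, limma). Only the last step passed: facial samples exceeded vagus samples by 2.70 ± 0.55 in Mbp (adjusted p = 9.13e-05, limma). The same last step passed for Mobp (4.05), Mog (3.05), Cldn11 (2.90) and Ugt8a (1.83), and for Mag between red nucleus and vagus (2.06). It did not pass for Cnp (0.22) or Mal (1.49).

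The vagus motor nucleus was the population that stood apart at day 10. Of 40 tests of a member between vagus and another population, 36 passed, each with the vagus lower. Those that did not were Cnp against ocular, facial and red nucleus samples and Mal against facial samples. Of 80 tests among the other 5 populations 2 passed, both of Ugt8a and both with facial samples lower. At day 5 the counts were 16 of 40 and 14 of 80, and at day 2 they were 8 of 40 and 10 of 80. Of those 8, 7 had the vagus higher: its Cnp exceeded that of each of the other 5 populations and its Mbp that of ocular and red nucleus samples. In the other test its Cldn11 was below that of hypoglossal samples. The same tests over all genes called 13.7% with the vagus and 5.53% among the others at day 10, 10.9% and 5.83% at day 5, and 10% and 8.18% at day 2. The control change from day 2 to day 10 was larger in lumbar than in vagus samples for all 8 genes, against 0.534% of all genes with a larger change in lumbar samples. For Mbp the difference of changes was 4.95 (95% interval 3.33 to 6.57) and for Mog 6.07. Against the changes in ocular, facial, hypoglossal and red nucleus samples 0 of 8 passed in each (limma), with 1, 4, 2 and 2 at an unadjusted p under 0.05, where 0.242%, 0.211%, 0.332% and 2.27% of all genes were called.

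Other genes with known roles in the sheath were followed in a list of 29 other myelin genes. In controls from day 2 to day 10, 11 of 28 tested rose in lumbar samples, 11 of 27 in ocular, 4 of 26 in hypoglossal, 5 of 24 in red nucleus and 2 of 26 in facial samples, and 0 of 21 in the vagus. One fell in facial samples (Gsn, -1.44) and 1 in red nucleus samples (Tspan2, -1.44). The median changes of the list were 1.02 in lumbar, 0.97 in ocular, 0.57 in hypoglossal, 0.56 in red nucleus, 0.28 in facial and 0.08 in vagus samples. Pllp rose in lumbar (2.16), ocular (2.39), facial (2.54) and red nucleus samples (1.92). Opalin rose in lumbar (2.11) and ocular samples (2.54), and the transcription factor Myrf in lumbar (1.32) and hypoglossal samples (1.43).

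Of 14 genes of oligodendrocyte precursors and committed cells, 5 rose in lumbar samples from day 2 to day 10: Bcas1 (4.03), a marker of newly formed oligodendrocytes, Gpr17 (2.63), Sox10 (1.90), Neu4 (1.36) and Enpp6 (1.04). In ocular samples 2 of 11 rose and in red nucleus samples 1 of 10, and no gene of oligodendrocyte precursors and committed cells passed in facial, hypoglossal or vagus samples. The summed RPKM of these genes was 30.3 to 45.7 in lumbar mice at day 2 and 80.5 to 164.3 at day 10, and 12.5 to 44.8 and 17.6 to 57.2 in vagus mice.

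Markers of other cells were read in the same tubes. Of 8 Schwann cell genes only 2 or 3 were tested in a population, and 2 to 6 of the 8 were at 0 in all control mice of a population at days 2 and 10. Pmp22, which neurons and other cells also express, rose in lumbar (3.94), ocular (2.60), hypoglossal (1.88) and facial samples (1.66). Of 10 astrocyte genes, S100b rose in 5 populations, by 1.17 in lumbar to 4.56 in red nucleus samples, and Slc1a3 fell in lumbar (-1.46) and hypoglossal samples (-1.20). Of the microglia genes, C1qb rose in red nucleus samples (2.66). The median summed RPKM of the microglia genes was 13.9 to 87.9 at day 2 and 14.3 to 73.7 at day 10. Of 8 vessel genes, Ly6c1 rose in red nucleus samples (2.21) and none else passed. The part of other cells in the myelin values was not tested.

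On the neuron side, 12 genes for axonal partners of myelin were read. Nfasc, which encodes the neurofascins of the node and its flanks, rose in lumbar (0.75), ocular (0.98), red nucleus (0.91), facial (0.76) and hypoglossal samples (0.69). Cadm3, an internodal adhesion molecule, rose in lumbar (0.80), facial (0.69) and hypoglossal samples (0.70). Cntnap1, of the paranode, rose in red nucleus samples (1.75). Rtn4r, the receptor that binds Mag and other myelin inhibitors, fell in lumbar (-0.99) and ocular samples (-1.85), and L1cam fell in lumbar (-0.57), ocular (-0.56) and red nucleus samples (-0.64). None of the axonal partners of myelin passed in the vagus.

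Genes whose level followed the members were found by Pearson's r with the mean z score of the 8 genes over the 160 samples, among 14085 genes. The points share mice, ages and populations, so r is a description only. Among the genes most like them were Trf_ann1 (r = 0.79; a row name of the table), Kcng4 (0.77), Fa2h (0.75), Apod (0.75) and Tmem88b (0.74). Among the members, Mobp and Mbp were close to each other (0.88), while Cnp was least bound to the rest, with Mag as its closest gene (0.67). Within groups of one population, age and genotype, where age no longer contributes, the 28 pairs of members still had r of 0.19 to 0.57 with a median of 0.39. The mean of the members had a median within-group r of 0.26 with other myelin genes and of -0.09 with the 10 neuron genes. With genes of oligodendrocyte precursors and committed cells it was 0.27, with microglia genes 0.19 and with astrocyte genes 0.16. For vessel genes and axonal partners of myelin it was 0.06, for Schwann cell genes -0.02 and for motor neuron genes -0.11.

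The second question was whether SMA delays this course. Between SMA and control mice of one age, 1 of 47 tests passed at day 2, and 0 of 47 at day 5 and at day 10. The one that passed was Mbp in the red nucleus, higher in SMA. Genes called in any direction were few: at day 2 they were 0.132% in ocular, 0.0232% in facial, 0.00599% in vagus, 0.0364% in hypoglossal, 0.0122% in lumbar and 0.0434% in red nucleus samples. At day 5 they were 0.0252%, 0.0695%, 0.00599%, 0.00607%, 0.0488% and 0.0062% in that order, and at day 10 they were 0.359%, 0.666%, 0.00599%, 0.0728%, 0.775% and 0.0124%. An unadjusted p under 0.05 was seen in 3, 9 and 3 of 47 tests at days 2, 5 and 10. The 3 at day 2 were higher in SMA, 2 in ocular and 1 in red nucleus samples. The 9 at day 5 were lower in SMA, 6 in facial, 2 in ocular and 1 in hypoglossal samples. The 3 at day 10 were also lower, 1 each in facial, lumbar and red nucleus samples. Of 48 gene and population pairs, the values of SMA and control mice overlapped in 46 at day 2, 47 at day 5 and 48 at day 10. Besides Mbp in the red nucleus, the pairs without overlap were vagus Mog at day 2 and hypoglossal Cnp at day 5, the latter higher in SMA. Vagus Mog was 0 in every SMA mouse and 0.253, 0.477 and 21.1 RPKM in controls. The share of all genes without overlap was not worked out, so these counts only describe the members.

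**Figure D4:**
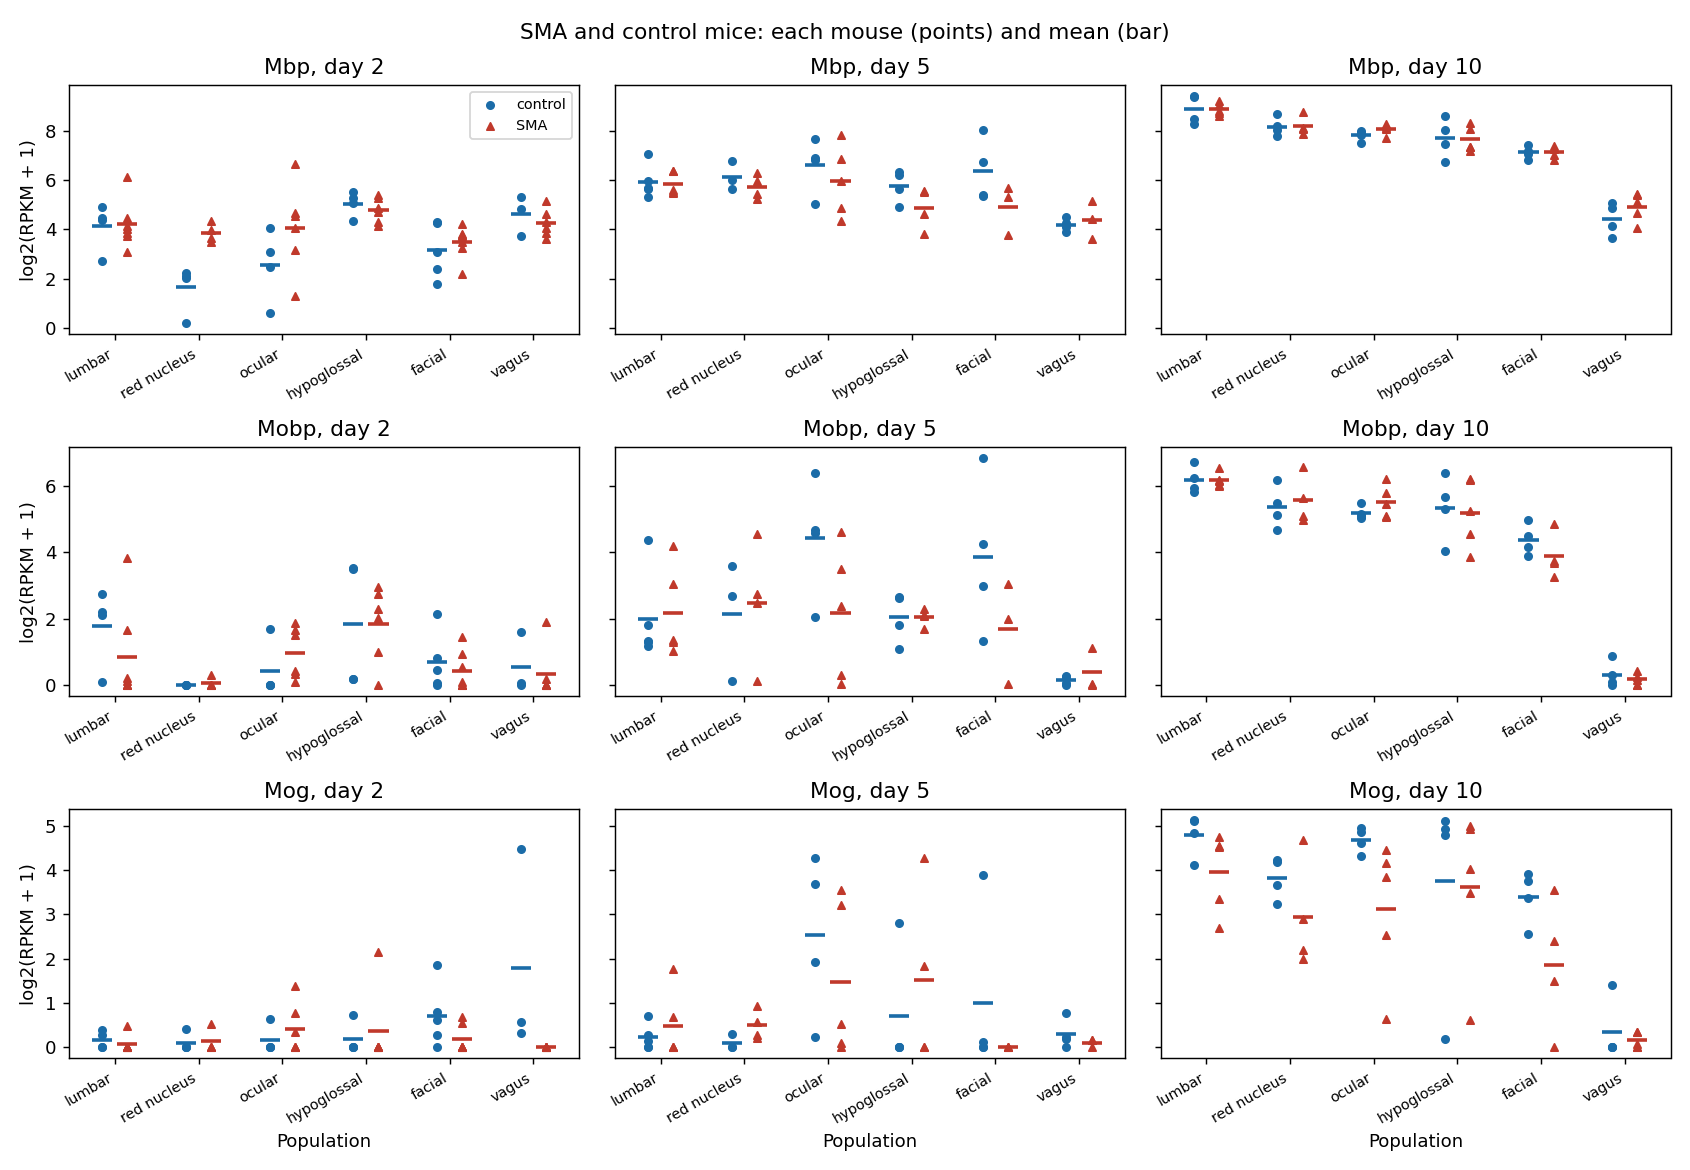
Rows are Mbp, Mobp and Mog and columns postnatal days 2, 5 and 10; each point is 1 mouse on a log2(RPKM + 1) axis, bars are group means, and colours separate SMA from control. The 2 colours overlap in every population at day 10, and Mbp in the red nucleus at day 2 is the only Mbp group where they do not.

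At day 10 the genotypes overlapped in Mbp in every population. Lumbar SMA mice had 397, 426, 446, 533 and 595 RPKM, inside the control range of 313 to 684 RPKM. Facial SMA mice had 114, 131, 152 and 168 RPKM against 112.1 to 171.04 RPKM in controls. Red nucleus SMA mice had 235, 267, 279 and 440 RPKM against 223.4 to 413 RPKM. In the vagus SMA mice had 15.7, 24.4, 33.2, 41.5 and 41.9 RPKM, so the low level there was seen in both genotypes.

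Over the 6 populations, Mog at day 10 had the lowest SMA minus control estimate of the 8 genes. Ocular SMA mice had 0.551, 4.75, 13.3, 16.9 and 20.99 RPKM against 19.1 to 30.1 RPKM in controls, a difference of -1.56 ± 0.78 (adjusted p = 0.845, limma). Only 1 of 5 SMA mice reached the control range. The value of 4.75 RPKM is that of SMA mouse 258, which gave an oculomotor library only. That of 16.9 RPKM is the mean of 29.96 RPKM in the trochlear and 3.85 RPKM in the oculomotor library of SMA mouse 196. No control mouse of day 10 gave an oculomotor library alone, so dissection differed between the genotypes here too. Lumbar SMA mice had 5.44, 9.15, 22.03, 22.4 and 25.7 RPKM against 16.4, 27.7, 33.8 and 33.9 RPKM, a difference of -0.83 ± 0.37 (adjusted p = 0.41, limma). Facial SMA mice had 0, 1.82, 4.26 and 10.7 RPKM against 4.89, 9.29, 12.5 and 14.0 RPKM, a difference of -1.54 ± 0.67 (adjusted p = 0.542, limma). The ranges overlapped in each population. Averaged over the 6 populations the Mog difference was -0.85 (95% interval -1.47 to -0.24; adjusted p = 0.176, limma), which did not pass. Without 1 mouse in turn the adjusted p ran from 0.0979 to 0.421. Mal in the red nucleus at day 10 was 0.945, 3.00, 3.94 and 5.39 RPKM in SMA against 3.51, 8.55, 12.04 and 17.2 RPKM in controls (-1.35 ± 0.40; adjusted p = 0.478, limma).

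At day 5 the estimates in facial and ocular samples were lower in SMA for all 8 genes, with medians of -1.57 and -0.88, and none passed. Facial Mbp was 12.5, 39.5 and 50.5 RPKM in SMA against 40.3, 41.5, 104.9 and 265 RPKM in controls (-1.46 ± 0.59; adjusted p = 0.846, limma). Facial Mobp was 0.0307, 2.99 and 7.27 RPKM against 1.498, 6.90, 18.1 and 111.9 RPKM (-2.15 ± 0.81; adjusted p = 0.827, limma). Ocular Mobp was 0.0282, 0.234, 4.18, 10.3 and 23.2 RPKM against 3.09, 22.8, 24.5 and 81.3 RPKM (-2.25 ± 0.74; adjusted p = 0.5, limma). All 3 pairs of groups overlapped, and the highest control values are those of mice 29 and 75 described above. Every ocular SMA library of day 5 was cut from both nuclei together. Control mice 29, 30 and 75 gave ocular libraries of single nuclei, so dissection differed between the genotypes in this ocular comparison. In lumbar samples, whose motor neurons are among the most affected in this model, Mbp at day 5 was 43.3 to 83.1 RPKM in SMA and 38.6 to 134 RPKM in controls, and the median difference of the 8 genes was 0.16.

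Mbp in the red nucleus at day 2 was 10.1, 11.4, 14.6 and 19.4 RPKM in SMA mice and 0.139, 3.02, 3.31 and 3.74 RPKM in controls. Every SMA mouse was above every control, and the difference was 2.22 ± 0.37 (adjusted p = 0.0351, limma), where 0.031% of all genes were called higher. Leaving out mouse 206 (adjusted p = 0.0562), 207 (0.0648), 211 (0.0764) or 244 (0.0564) ended the call (limma). The call was also lost with a pseudocount of 0.1 (adjusted p = 0.0852), with no filter on low values (0.0903), with quantile normalization (0.0523) and in a fit of these 2 groups alone (0.461), all limma. Depth was 3.98 to 7.15 M reads in these controls and 5.36 to 7.15 M in the SMA mice. In the same samples the estimates of all 10 tested genes of oligodendrocyte precursors and committed cells were higher in SMA, with a median of 1.07, and none passed (6 at an unadjusted p under 0.05), among them Olig2 (2.35, adjusted p = 0.126) and Sox10 (1.92, adjusted p = 0.253, limma). Averaged over the 6 populations, 1 gene of that list passed at day 2: Bcas1, higher in SMA by 0.89 (adjusted p = 0.0233, limma). The part of those cells in the red nucleus difference was not tested.

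Over the 6 populations together, no member differed between genotypes at any age: 0 of 8 passed at each, against 1.54%, 0.117% and 1.78% of all genes at days 2, 5 and 10 (limma, mouse as a random block), and 1 member had an unadjusted p under 0.05 at each age. At day 2 these were Mbp (0.58, interval 0.13 to 1.03), at day 5 Mbp (-0.52, interval -1.02 to -0.02), and at day 10 Mog, given above. At day 5 all 8 estimates were below 0, from -0.03 to -0.56, and at day 10 7 of 8 were, with Mbp at 0.12 (interval -0.36 to 0.60). Over the 8 genes and 3 ages the 95% intervals spanned at most -1.47 to 1.06 on the log2(RPKM + 1) scale. Each interval stands for its own gene and age, and together they are not a joint bound. A p that misses the threshold does not show that the genotypes are alike.

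**Figure D5:**
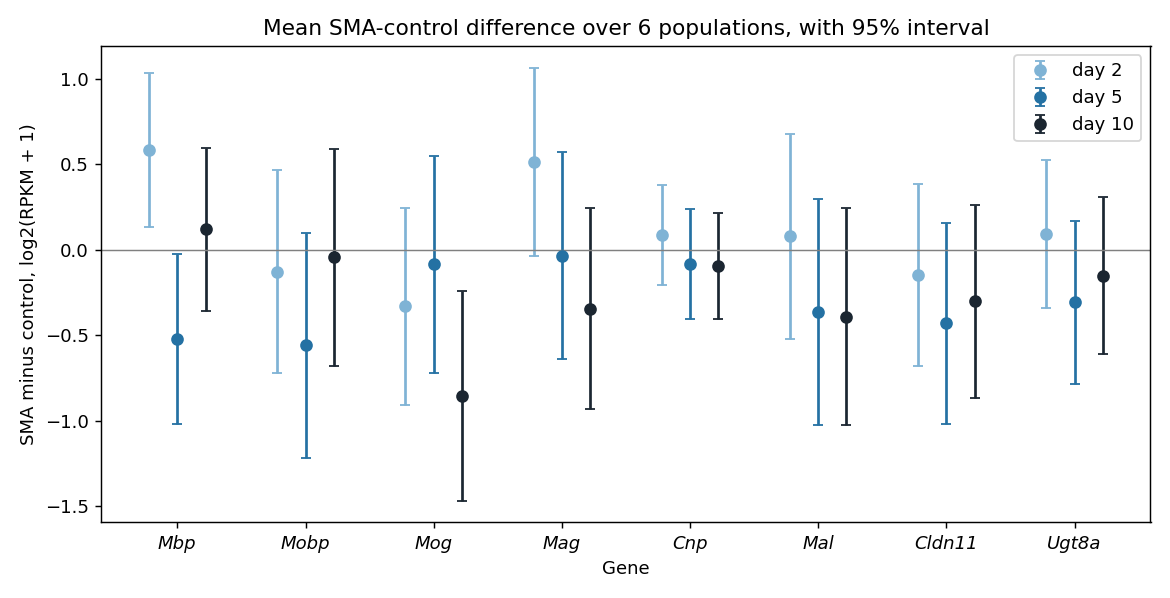
The horizontal axis is the gene and the vertical axis the SMA minus control difference in log2(RPKM + 1), averaged over the 6 populations; points are estimates at postnatal days 2, 5 and 10 and bars their 95% intervals. Most intervals include 0, and the lowest point is Mog at day 10, at -0.85.

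The course itself was tested as the difference of changes. Between day 2 and day 10, 0 of 47 tests passed in limma, with 3 at an unadjusted p under 0.05. Among all genes 0.126% passed in ocular, 0.122% in facial and 0% in the other samples. The change was lower in SMA than in controls in 30 of the 47 estimates and higher in 17, with a median difference of -0.32. The lowest estimate was Mbp in the red nucleus, -2.19 ± 0.53 (adjusted p = 0.377, limma), which shares its day-2 values with the difference above. Between day 2 and day 5, 0 of 47 passed (limma), with 9 at an unadjusted p under 0.05. Among all genes 0.00629% passed in ocular, 0.0116% in facial and 0% in the other samples. There 27 of the 47 estimates were lower in SMA and 20 higher, with a median of -0.15. Over the 6 populations 0 of 8 passed, against 0.669% of all genes, with Mag lowest at -0.86 and the only one at an unadjusted p under 0.05 (adjusted p = 0.453, limma). Whether the genotype difference depended on the population was tested with limma's F test at each age. At days 2, 5 and 10, 0 of 8 passed, with 2, 3 and 0 at an unadjusted p under 0.05. Among all genes 0.494%, 0.211% and 0.624% passed. A missed threshold does not show that the genotype difference was the same in every population. In the list of 29 other myelin genes, 0 passed between genotypes in each population and age (limma), with at most 5 at an unadjusted p under 0.05, in ocular samples at day 2.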

How the data were processed

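RNA was measured in 168 libraries of about 150 laser-cut cells each, made with Smart-seq2 and Tn5 from polyA RNA, per the labels' protocols. The authors deposited 1 table of RPKM values for 39410 gene rows, of which 8942 are at 0 in every library; per the submitters' processing notes STAR 2.4.1c was used and builds mm10 and hg19 are named. The count of reads behind each value was not given. Some lumbar control libraries of day 5 were mapped together with reads deposited earlier, per the labels. Depth was recovered from the smallest steps of 11523 genes with 1 transcript of 300 bases or more.

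Libraries of 1 mouse and population (8 pairs) were averaged. Tests used limma 3.58.1 (R 4.3.3, statmod 1.5.0) on log2(RPKM + 1), with an intensity trend and Benjamini-Hochberg adjustment over all genes of a contrast at 0.05. Genes needed 1 RPKM in as many samples as the smallest group (15890 to 17270 genes per population, 22270 in the fit of all groups). A fold change on this scale understates that of low genes. Each population was fitted alone with its 6 groups of genotype and age; the fit of all 36 groups took the mouse as a random block (consensus correlation 0.0366), since 1 mouse gave several populations. Groups of genotype and age hold different mice, so they are not paired. P-values measure the spread between mice. The fits were tested on simulated data.

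The members and gene lists were chosen with earlier results of these data known. Named genes are the 8 members, list genes past the threshold or of high level, and the genes most like the members by Pearson's r. Trf, Lhfpl3 and Slc18a3 were not analysed here, and 2 genes of the lists are not reported here. Gene positions are from GENCODE M21. Alternatives were a pseudocount of 0.1, no filter, quantile normalization, each library as its own sample, only the groups compared in a fit, no block or a fixed block, each mouse left out, and, chosen after seeing the data, the ocular samples without libraries of the trochlear nucleus alone.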

Additional observations from a re-analysis of the deposited data

Results flagged for a closer look

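Single mice far from the rest of their group were found in 16 of the groups of a gene, population, genotype and age with 4 or more mice and a mean of at least 1 RPKM, or 8.08% of them. Independent groups would give about 1 in 20 by chance. The groups here share mice, so these rates cannot be compared strictly. Control mouse 29 was highest in Mog at day 5 in facial (13.9 RPKM) and hypoglossal samples (5.99 RPKM). Control mouse 71 was highest in lumbar samples at day 5 for Mobp (19.7 RPKM) and Mag (6.17 RPKM). SMA mouse 206 was highest in lumbar samples at day 2 for Mobp (13.2 RPKM), Mag (5.72 RPKM) and Cldn11 (11.2 RPKM). Control mouse 244 had the lowest Mbp of the red nucleus at day 2 (0.139 RPKM) and the highest Cnp of the ocular samples at day 2 (19.1 RPKM). Control mouse 247 had the lowest Mog of the hypoglossal samples at day 10 (0.135 RPKM), and control mouse 253 the highest Mag of the red nucleus at day 10 (15.5 RPKM). In SMA mice, Mag was lowest in mouse 209 (0.376 RPKM) and Cldn11 lowest in mouse 211 (6.82 RPKM) in hypoglossal samples at day 2. SMA mouse 249 had the lowest vagus Cnp at day 10 (15.5 RPKM) and SMA mouse 76 the highest ocular Cnp at day 5 (48.5 RPKM). Control mouse 240 had the lowest facial Cldn11 at day 2 (0.352 RPKM).

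The change from day 2 to day 10 in controls differed between populations for 7 of the 8 genes by limma's F test of the difference itself. The adjusted p was 1.29e-09 for Mbp, 3.39e-05 for Cnp, 4.75e-05 for Mog, 0.000476 for Ugt8a, 0.00195 for Mobp, 0.00384 for Mal and 0.00631 for Cldn11.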

How the results depend on the processing

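Of the 58 member changes between ages in controls that passed the threshold, each refitted under the alternatives (773 refits), 83 refits lost the call, in 19 of the changes, and 0 changed sign. In the 429 refits of 25 SMA minus control differences, the call of Mbp in the red nucleus at day 2 was lost 8 times and a sign changed 21 times. The cause of these shifts was not tested.

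With a pseudocount of 0.1 the members past the threshold between day 5 and day 10 went from 4 to 2 in hypoglossal and from 5 to 2 in red nucleus samples, and the SMA difference in the red nucleus at day 2 went from 1 to 0. With no filter the counts between day 2 and day 5 went from 3 to 1 in ocular and from 1 to 0 in lumbar samples. The red nucleus SMA count also went to 0 with no filter and with quantile normalization, which turned the day-2 Ugt8a mean difference to -0.023. With each library as its own sample, lumbar day 2 to day 5 went from 1 to 0 and ocular day 5 to day 10 from 0 to 1. When each fit held no samples beyond its own comparison, the counts between day 2 and day 5 were 0 in ocular, facial, lumbar and red nucleus samples, that between day 2 and day 10 in hypoglossal samples was 2, those between day 5 and day 10 were 2 in hypoglossal and 3 in red nucleus samples, and the SMA count in the red nucleus was 0. Without the trochlear libraries, chosen after seeing the data, the ocular counts were 1 between day 2 and day 5 and 2 between day 5 and day 10, and the day-5 mean differences of Cnp, Mag and Mog became 0.0099, 0.074 and 0.076.

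Leaving out 1 mouse at a time moved the count between day 2 and day 5 from 0 to 5 in ocular, 0 to 2 in facial and 0 to 1 in lumbar samples. Between day 5 and day 10 it ran from 2 to 7 in hypoglossal, 3 to 5 in red nucleus, 0 to 1 in ocular and 0 to 1 in facial samples. The count of genes that differed among populations at day 5 ran from 4 to 7, and the SMA count in the red nucleus at day 2 from 0 to 1. The mean SMA minus control differences that changed sign ran, at day 2, from -0.024 to 0.19 for Ugt8a, -0.011 to 0.21 for Cnp, -0.052 to 0.21 for Mal and -0.26 to 0.065 for Mobp. At day 5 they ran from -0.20 to 0.20 for Mag, -0.34 to 0.31 for Mog and -0.18 to 0.026 for Cnp, and at day 10 from -0.17 to 0.050 for Cnp and -0.12 to 0.063 for Mobp.

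No paired analysis was possible between genotypes or ages, because each mouse has 1 genotype and 1 age. Between populations the mouse pairs the samples. Without the replicate block no call changed: the counts were 4, 7 and 8 at days 2, 5 and 10, 7 for the dependence of the change on population, and 0 for each genotype count. With the mouse as a fixed replicate block in controls of one age they were 3, 5 and 8.

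Depth limits the low genes: at the median depth 1 read of Mog is worth 0.0996 RPKM, so a value listed at 0 is not evidence of absence. Groups hold 3 to 7 mice, which limits the precision of each difference.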
